A study of Mus musculus with 10 samples.

Results

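Transcripts of 10 genes of tumour necrosis factor (TNF) signalling were followed with and without Arid1a in mouse prostate epithelium and in a prostate cancer cell line. The genes were taken by symbol from the 48897 rows of each expression table, and all 10 were found in both tables. They comprised the ligand genes Tnf, Ltb, Tnfsf10 and Tnfsf9, the receptor genes Tnfrsf1a, Tnfrsf1b, Fas, Cd40 and Tnfrsf12a, and Birc3, which encodes an inhibitor of cell death. Arid1a encodes a DNA-binding subunit of the SWI/SNF chromatin remodelling complex, and the comparison asked what its loss changes in prostate cells that already carry another cancer-promoting alteration, which in the cell line is overexpression of Myc.

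The epithelium samples were EpCAM+; CD45- cells sorted from the prostates of 3-month-old C57BL/6 mice. Control libraries A, B and C came from mice with a background deletion in the prostate and the other 3, also lettered A, B and C, came from mice with the same deletion and Arid1aPC-/-. The deletions were made by a Cre recombinase under the Probasin promoter, which is active in prostate epithelium, so the control mice were not wild type and all 6 libraries shared the background deletion. Myc-CaP is a mouse prostate cancer line of FVB background that overexpresses Myc, and it gave 2 libraries with an empty vector and 2 with an Arid1a knockout (KO) made with lentiviral guide RNAs. The labels do not say whether the KO line was 1 clone or a pool, and they name the cell line as the source while the study also sequenced tumours grown from it, so growth in culture was not settled. No label says that the 2 cell line libraries of a group came from separate cultures. P-values therefore measure only the spread between these libraries, which for the cell line may be technical.

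TNF superfamily ligands are trimeric proteins, mostly made as membrane proteins, of which several are cut from the cell surface by metalloproteases. Their receptors either recruit TRAF adaptors, which lead to NF-kB and to transcription of inflammatory and survival genes, or carry a death domain that can engage caspase-8. Whether a cell survives an encounter with TNF depends on brakes such as the inhibitor of apoptosis proteins and the caspase-8 antagonist encoded by Cflar, several of which are themselves NF-kB targets. Macrophages and other leukocytes are a major source of TNF, and epithelial and tumour cells carry many of the receptors.

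Libraries held between 28174937 and 35501790 reads assigned to genes in the epithelium and between 17969891 and 20134889 in Myc-CaP, as recovered from the steps between the deposited values. Arid1a itself measured 27.8, 21.9 and 26.5 RPKM (reads scaled by gene length and library size) in the control epithelium and 31.1, 28.8 and 30.8 in the libraries labelled Arid1a KO, and was therefore not reduced in them. A gene total also counts exons outside a deleted segment, so it cannot show whether the floxed part was lost, and every direction given for the epithelium rests on the labels. In Myc-CaP, Arid1a measured 60.5 and 61.0 TPM (length-scaled abundance with a fixed sum in every library) with the empty vector and 39.5 and 40.3 in the KO. Although CD45+ cells were sorted away, Ptprc, the gene of CD45, measured 30.3, 26.0 and 29.5 RPKM in the control epithelium and 56.2, 58.1 and 57.6 in the libraries labelled Arid1a KO. All 6 leukocyte markers and all 7 macrophage markers rose under the Arid1a KO label, with summed levels of 517 to 546 against 868 to 943 RPKM for the first list and 1563 to 1861 against 2271 to 2760 RPKM for the second. The 6 seminal vesicle genes summed to between 18306 and 20706 RPKM in controls and to between 623 and 1573 RPKM in the others. The epithelial markers Epcam and Krt8 were abundant in all 6 epithelium libraries, with lowest values of 183 and 781 RPKM. Epcam, the marker of the sort, was nevertheless lower in every library labelled Arid1a KO than in every control. Its mean was 304 RPKM in controls and 201 RPKM in the others (limma adjusted p-value 0.00409). The groups of Krt8 overlapped, with means of 859 and 875 RPKM. In Myc-CaP, Epcam was at 0 in 3 of 4 libraries and Krt8 measured 1.07 and 0.79 TPM with the empty vector and 40.3 and 38.8 in the KO.

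In the epithelium, 4 of the 10 genes changed at an adjusted p-value under 0.05, with Tnf, Tnfrsf1b and Birc3 up and Tnfsf10 down where Arid1a KO was the label. Mean Tnfrsf1b was 1.99 times and mean Tnf 1.54 times its control level. By contrast, the 95% intervals of Ltb, Tnfsf9, Tnfrsf1a, Fas and Tnfrsf12a lay within 0.30 of no change on the log2 scale. That bound holds for the RPKM as deposited, without rescaling of the libraries. Of all 16275 genes tested in the epithelium, 57.1% passed the same threshold, 27.5% as higher and 29.6% as lower, so the share of the 10 genes that passed was not above that of the genome. The median log2 fold change of the 10 genes was 0.05 and that of all genes tested was -0.03. Controls and the other libraries stood apart without overlap for 6 of the 10 genes, against 66.7% of all genes tested. By the criteria of the study (1.5-fold or more, with p under 0.05 before adjustment), Tnf and Tnfrsf1b alone among the 10 passed, against 24.8% of all genes tested.

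**Figure D1:**
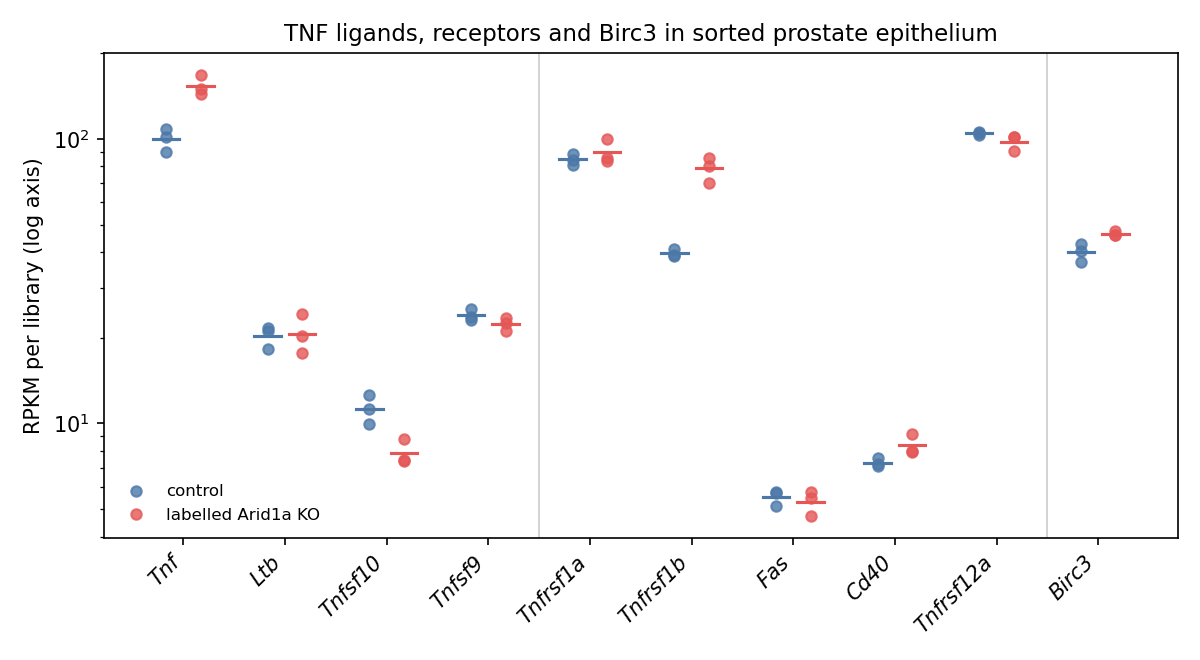
RPKM of the 10 genes in each epithelium library on a log axis, with blue points for the 3 control libraries, red points for the 3 libraries labelled Arid1a KO and a line at each group mean; vertical lines separate ligands, receptors and Birc3. The groups do not overlap for Tnf, Tnfsf10, Tnfrsf1b, Cd40, Tnfrsf12a and Birc3, and Tnfrsf1b moves from a mean of 39.6 to 78.7 RPKM.

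Tnf and Ltb lie next to each other on chromosome 17 and encode ligands of related receptors. On GRCm38, Ltb spans chr17:35194439-35196320 on the plus strand and Tnf spans chr17:35199381-35202007 on the minus strand, with 3060 bases between them. The lymphotoxin-alpha gene Lta is also on the minus strand, with 1157 bases between its 3' end and the start of Tnf. The sequences upstream of both starts are shown because these neighbours behaved differently in the epithelium. They are RefSeq sequences of GRCm38.p6 on each gene's own strand, from chr17:35202008-35202257 for Tnf and chr17:35194257-35194438 for Ltb, and the stretch of Ltb ends 68 bases before its RefSeq start so as to leave out transcribed bases. Capitals mark the TATAAA of Tnf and the match to the NF-kB consensus of Ltb.
Tnf: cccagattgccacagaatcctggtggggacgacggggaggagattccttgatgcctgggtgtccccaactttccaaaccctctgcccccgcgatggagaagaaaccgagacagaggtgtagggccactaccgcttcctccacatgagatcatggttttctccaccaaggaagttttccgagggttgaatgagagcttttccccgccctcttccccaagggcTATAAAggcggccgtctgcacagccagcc
Ltb: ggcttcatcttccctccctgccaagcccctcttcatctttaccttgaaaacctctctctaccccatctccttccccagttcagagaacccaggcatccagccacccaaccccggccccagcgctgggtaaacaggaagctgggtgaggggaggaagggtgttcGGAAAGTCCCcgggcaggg

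The 250 bases before each RefSeq start were searched on both strands for the NF-kB consensus, TGANTCA (the AP-1 element) and TATAAA, which do not overlap one another in the stretches printed. Sequences were matched for 8 of the 10 genes, all except Cd40 and Tnfsf9. The NF-kB consensus occurred in 1 of the 8, Ltb, at 87 to 78 bases before the start, and in 3.9% of all 32851 windows. TGANTCA occurred in 1 of the 8, Fas, and in 6.75% of all windows. TATAAA occurred in 1 of the 8, Tnf, at 29 to 24 bases before the start, and in 12.4% of all windows. None of these matches tells whether a factor binds there, and other spellings or sites farther away were not searched.

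Tnf, which encodes the founding ligand of the family, measured 102, 108 and 89.9 RPKM in controls A, B and C, and 144, 168 and 150 RPKM in the libraries labelled Arid1a KO. Every one of the latter lay above every control library. The mean rose from 100 ± 9.30 to 154 ± 12.5 RPKM (mean ± SD, n = 3). On the log2(RPKM + 1) scale the fold change was 0.61 ± 0.09 (SE), and its adjusted p-value was 0.00115. These values rest on between 4635 and 8253 reads per library.

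Ltb, which encodes lymphotoxin-beta, measured 21.1, 21.7 and 18.2 RPKM in controls and 17.6, 24.2 and 20.2 in the libraries labelled Arid1a KO. The groups overlapped fully, and the log2 fold change was 0.02 with a 95% interval from -0.26 to 0.30 and an adjusted p-value of 0.904. Lta was near the lower limit in both groups, with means of 0.195 and 0.241 RPKM, and was not tested. The ratio of Tnf to Ltb within a library, which does not depend on how the library was scaled, was 4.84, 5.00 and 4.94 in controls and 8.15, 6.92 and 7.40 in the others. The groups did not overlap and differed by 0.60 on the log2 scale, with an exact two-sided permutation p-value of 0.1, the smallest that 3 against 3 allows, and 0.14 after Benjamini-Hochberg adjustment over the 7 ratios computed.

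Tnfsf10, which encodes the death ligand TRAIL, was the only one of the 10 genes called as lower. It measured 12.6, 9.92 and 11.3 RPKM in controls and 7.44, 7.35 and 8.85 in the libraries labelled Arid1a KO. All 3 of the latter were below all control libraries. The mean went from 11.2 ± 1.31 to 7.88 ± 0.84 RPKM, with a log2 fold change of -0.46 ± 0.10 with an adjusted p-value of 0.00681. When every library was rescaled to the same sum of RPKM, the log2 fold change was -0.30 and the adjusted p-value 0.0564. Tnfsf9, which encodes the co-stimulatory ligand of Tnfrsf9, measured 23.1, 23.6 and 25.3 RPKM in controls and 22.6, 21.1 and 23.5 in the others. These groups overlapped, with a log2 fold change of -0.10, a 95% interval from -0.25 to 0.06 and an adjusted p-value of 0.247, and rescaling turned the log2 fold change to 0.074.

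Of the 2 receptor genes for TNF, Tnfrsf1b changed and Tnfrsf1a did not pass the test. Tnfrsf1b, which encodes TNF receptor 2 without a death domain, measured 41.1, 38.7 and 38.9 RPKM in controls and 80.3, 85.6 and 70.2 in the libraries labelled Arid1a KO. All 3 of the latter lay above all controls. The mean rose from 39.6 ± 1.34 to 78.7 ± 7.81 RPKM, with a log2 fold change of 0.97 ± 0.08 with an adjusted p-value of 9.3e-05, the largest log2 fold change among the 10 genes. Tnfrsf1a, which encodes the death domain receptor for TNF, measured 84.3, 81.1 and 88.5 RPKM in controls and 99.8, 85.8 and 83.6 in the others. Library A labelled Arid1a KO was the highest and the remaining libraries overlapped, so that the log2 fold change was 0.08 with a 95% interval from -0.11 to 0.27 and an adjusted p-value of 0.430. After rescaling to the same sum it was 0.26 with an adjusted p-value of 0.0408. Within a library, the ratio of Tnfrsf1b to Tnfrsf1a was 0.488, 0.477 and 0.440 in controls and 0.804, 0.997 and 0.840 in the others, a difference of 0.91 on the log2 scale with an exact permutation p-value of 0.1 (adjusted 0.14).

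The remaining receptors differed little between the groups. Cd40, which encodes the receptor by which T cells license antigen-presenting cells, measured 7.54, 7.08 and 7.19 RPKM in controls and 9.20, 8.01 and 7.95 in the libraries labelled Arid1a KO. The groups did not overlap, but the log2 fold change of 0.18 ± 0.08 had an adjusted p-value of 0.0757 and missed the threshold. With the libraries rescaled to the same sum it was 0.34 with an adjusted p-value of 0.0109. Fas, which encodes the death receptor for Fas ligand, had the lowest level of the 10 genes, with 5.74, 5.68 and 5.14 RPKM in controls and 5.75, 5.45 and 4.74 in the others. Its groups overlapped and the 95% interval of the log2 fold change ran from -0.25 to 0.15, with a turn to 0.10 after rescaling. Tnfrsf12a, which encodes the receptor for the ligand TWEAK (Tnfsf12), measured 106, 103 and 105 RPKM in controls and 102, 101 and 90.5 in the others. All libraries labelled Arid1a KO lay below all control libraries, but by a log2 fold change of -0.10 with an adjusted p-value of 0.241, and the direction turned to 0.077 after rescaling. The ligand gene Tnfsf12 was also close to level, with means of 21.3 and 21.0 RPKM.

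Birc3 encodes a ubiquitin ligase of the inhibitor of apoptosis family that binds TRAF2 and holds the TNF receptor complex in its survival mode. It measured 40.3, 36.8 and 42.6 RPKM in controls and 45.8, 45.8 and 47.3 in the libraries labelled Arid1a KO. The groups did not overlap and the mean went from 39.9 ± 2.94 to 46.3 ± 0.84 RPKM. The log2 fold change of 0.21 ± 0.07 had an adjusted p-value of 0.0313. The call was lost without control library A, where the adjusted p-value was 0.068, and without library A, B or C labelled Arid1a KO, where it was 0.0709, 0.0709 and 0.0812. The ratio of Birc3 to its paralog Birc2 was 3.46, 3.07 and 3.86 in controls and 4.04, 3.64 and 3.79 in the others, and these overlapped (exact permutation p-value 0.3).

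By level per gene length, the control epithelium ran from Tnfrsf12a, Tnf and Tnfrsf1a at means of 105, 100 and 84.6 RPKM through Birc3 and Tnfrsf1b at 39.9 and 39.6 to Cd40 and Fas at 7.27 and 5.52. Tnfrsf12a could not be separated from Tnf, nor Birc3 from Tnfrsf1b, by the spread between libraries. In the libraries labelled Arid1a KO, Tnf stood first without overlap with Tnfrsf12a, Tnfrsf1b passed above Birc3 without overlap, and Tnfsf10 went below Cd40 with overlap.

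In sorted cells, more leukocytes and more RNA of a leukocyte gene per cell cannot be told apart, so 4 genes that leukocytes express were also set against Ptprc within each library. The mean of Ptprc itself went from 28.6 to 57.3 RPKM. The ratio of Tnfrsf1b to Ptprc was 1.35, 1.49 and 1.32 in controls and 1.43, 1.47 and 1.22 in the others, a log2 difference of -0.02 (exact permutation p-value 0.9, also 0.9 adjusted). The ratio of Tnf to Ptprc was 3.36, 4.16 and 3.05 in controls and 2.55, 2.88 and 2.60 in the others, a log2 difference of -0.38. Against the summed level of the 6 leukocyte markers these differences were 0.23 for Tnfrsf1b and -0.14 for Tnf, so the direction of the first and the size of the second depend on the denominator.

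Ltb and Cd40 were lower relative to Ptprc in the libraries labelled Arid1a KO. The ratio of Ltb to Ptprc was 0.694, 0.832 and 0.616 in controls and 0.313, 0.416 and 0.351 in the others, and that of Cd40 to Ptprc was 0.248, 0.272 and 0.244 against 0.164, 0.138 and 0.138. The log2 differences were -0.99 and -0.80, and -0.74 and -0.55 against the 6 markers. For Tnf, Ltb and Cd40 the groups did not overlap and the exact permutation p-value was 0.1 (adjusted 0.14), so none of these ratios passed a threshold of 0.05, which 3 libraries against 3 cannot reach. Ptprc itself had a log2 fold change of 0.98, so any gene that stayed level must fall against it. Ltb and Cd40 had log2 fold changes of 0.02 and 0.18, so their lower ratios mostly restate the rise of Ptprc. The share of all genes that separate against Ptprc was not computed.

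**Figure D2:**
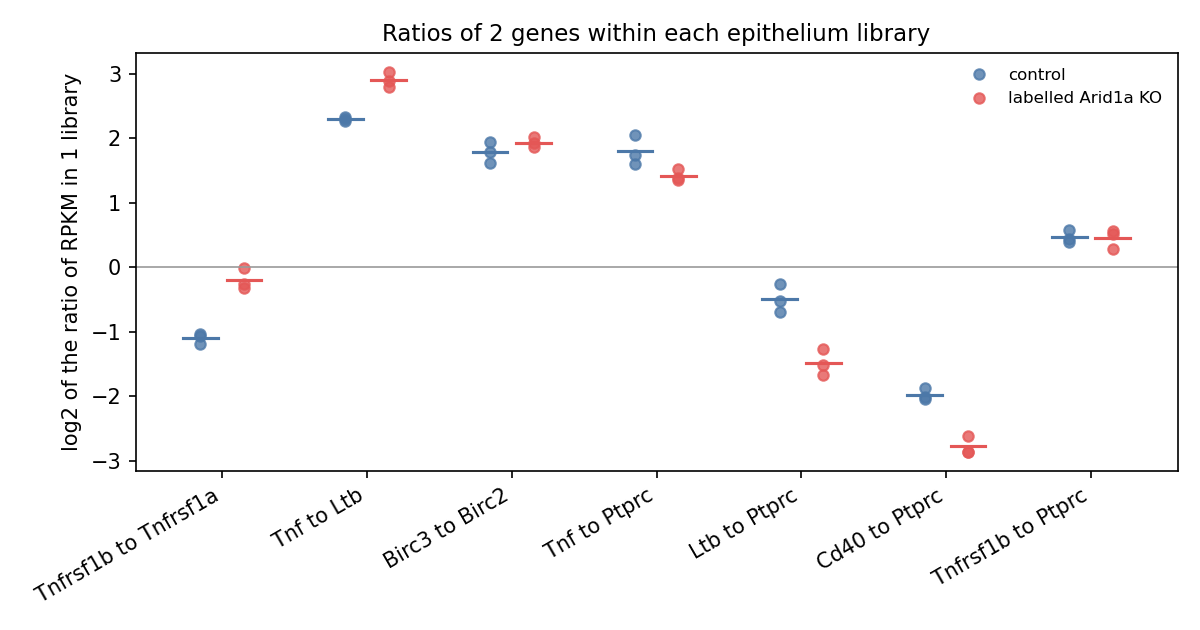
Log2 of the ratio of RPKM of 2 genes within each epithelium library, with blue points for control libraries, red points for libraries labelled Arid1a KO and lines at the group means. Tnfrsf1b rises against Tnfrsf1a by 0.91 but not against Ptprc, which itself rises. Ltb, Cd40 and Tnf sit lower against Ptprc in the libraries labelled Arid1a KO.

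Myc-CaP cells offered the same comparison with hardly any leukocyte transcripts, as Ptprc was listed at 0 in 3 of 4 libraries and at 0.0441 TPM in the remaining one. Of the leukocyte list, Arhgdib was the exception, with means of 387 and 317 TPM. Some fibroblast and smooth muscle genes differed between the libraries of 1 group, with more reads in library 2 of each. Col1a1 had 11 and 888 reads with the empty vector and 17 and 336 in the KO, and Acta2 had 0 and 107 against 1 and 49. Pdgfra did not follow this, with 442 and 425 against 330 and 301 reads. The source of these reads was not tested. In these cells 5 of the 10 genes passed the minimum mean of 0.5 TPM. Of these 5, Tnfrsf1a alone changed at an adjusted p-value under 0.05, in the upward direction. Among all 13974 genes tested, 6.43% passed, 4.54% as higher and 1.89% as lower. Empty vector and KO libraries stood apart for 4 of these 5 genes, against 51.5% of all genes tested. By the criteria of the study Tnfsf10 alone passed, against 6.28% of all genes tested.

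Ligands were scarce in Myc-CaP apart from Tnfsf9, which measured 17.7 and 15.8 TPM with the empty vector and 15.6 and 14.9 in the KO. Its log2 fold change was -0.13 with a 95% interval from -0.37 to 0.11. Tnfsf10 measured 0.60 and 0.47 TPM with the empty vector and 1.39 and 1.46 in the KO, from 26 and 18 against 57 and 55 reads. The KO libraries were both above the empty vector libraries, and the log2 fold change of 0.66 ± 0.19 had an adjusted p-value of 0.126. On the recovered reads, analysed with limma voom, the log2 fold change was 1.39 with an adjusted p-value of 0.0202. Tnf was barely detected, with 2 and 1 reads with the empty vector and 2 and 1 in the KO. Ltb had 0 reads in 3 libraries and 2 in KO library 1, and a count of 0 allows up to 0.312 TPM in the first empty vector library.

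Receptors were the better measured class in Myc-CaP. Tnfrsf12a had the highest level of the 10 genes, with 295 and 317 TPM with the empty vector and 308 and 303 in the KO. These values overlapped, and the log2 fold change was 0.00 with a 95% interval from -0.15 to 0.15. Tnfrsf1a measured 57.9 and 53.8 TPM with the empty vector and 79.6 and 72.6 in the KO. Its mean rose from 55.9 ± 2.93 to 76.1 ± 4.98 TPM (mean ± SD, n = 2), and the log2 fold change of 0.44 ± 0.08 had an adjusted p-value of 0.0412. The call was lost when any 1 of the 4 libraries was left out, with adjusted p-values between 0.147 and 0.225. Tnfrsf1b measured 20.2 and 19.2 TPM with the empty vector and 25.5 and 23.6 in the KO. The KO libraries were again higher, by a log2 fold change of 0.30 ± 0.08 with an adjusted p-value of 0.109. With the replicate number as a block in limma the adjusted p-value of Tnfrsf1b was 0.0271, but no label says that the numbers pair the libraries. The ratio of Tnfrsf1b to Tnfrsf1a was 0.348 and 0.357 with the empty vector and 0.321 and 0.325 in the KO, with an exact permutation p-value of 0.333, the smallest that 2 against 2 allows.

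Fas, Cd40 and Birc3 were at the limit of detection in Myc-CaP. Fas had 4 and 4 reads with the empty vector and 1 and 5 in the KO, and Cd40 had 2 and 0 against 0 and 1. Birc3, at 36.8 RPKM or more in every epithelium library, had 1 and 1 reads with the empty vector and 0 and 0 in the KO, where a count of 0 allows up to 0.102 and 0.111 TPM. No difference was detectable for these genes at this depth. Limits of this kind cover counting error only.

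**Figure D3:**
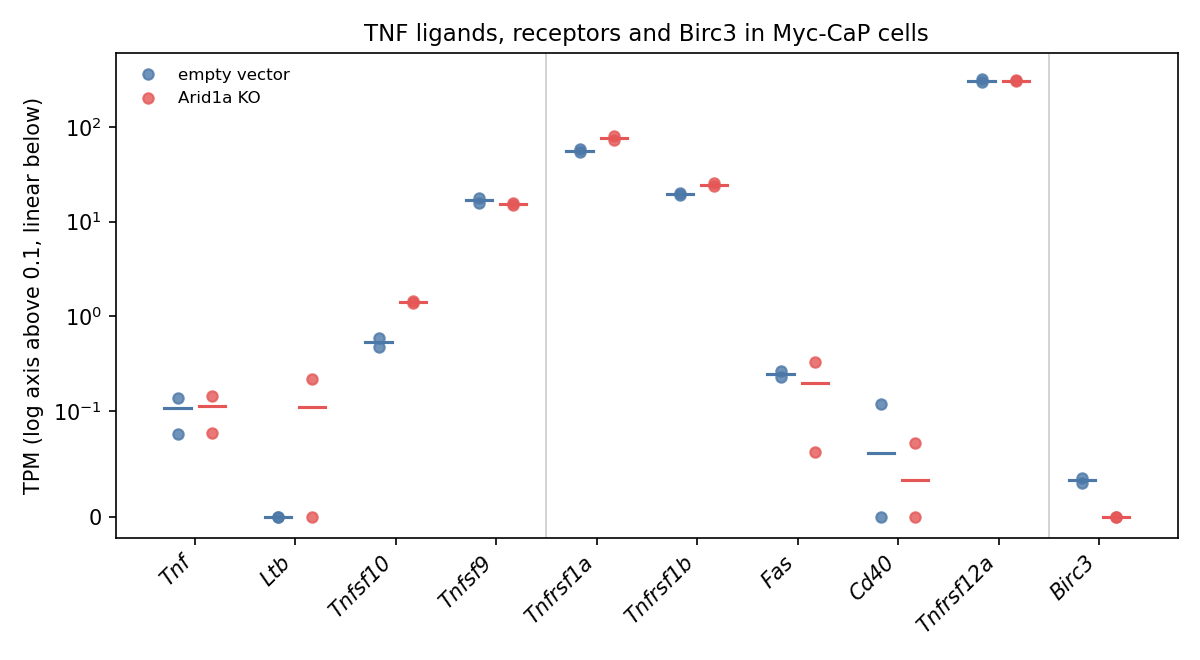
TPM of the 10 genes in each Myc-CaP library, on an axis that is logarithmic above 0.1 and linear below, with blue points for the empty vector, red points for the Arid1a KO and lines at the group means. Tnfrsf12a, Tnfrsf1a, Tnfrsf1b and Tnfsf9 lie above 10 TPM in every library, whereas Tnf, Ltb, Fas, Cd40 and Birc3 lie near 0.

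Both receptors for TNF had positive fold changes in both systems. The log2 fold change of Tnfrsf1b was 0.97 in the epithelium and 0.30 in Myc-CaP, and that of Tnfrsf1a was 0.08 and 0.44. The tables were normalized separately and have different units, so the differences between the systems were not tested. Tnfrsf12a and Tnfsf9 passed the test in neither system.

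**Figure D4:**
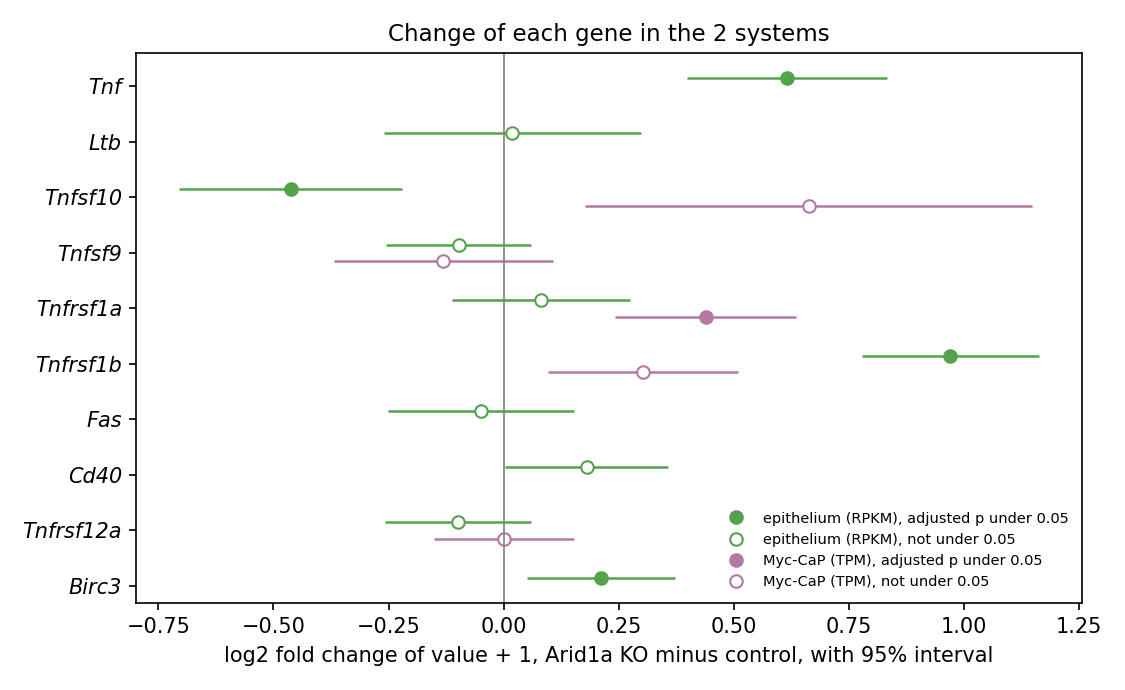
Log2 fold change of value + 1 between Arid1a KO and control for each gene, with 95% intervals, in the epithelium (green) and Myc-CaP (purple); filled points have an adjusted p-value under 0.05, and genes under the minimum mean are left out. Tnfsf10 lies at -0.46 in the epithelium and 0.66 in Myc-CaP, and Tnfrsf1b at 0.97 and 0.30.

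The wider pathway was read from 6 lists of 86 further genes. In the epithelium 81 of them were tested and 56 changed, 43 of them upward and 13 downward, again beside 57.1% of all genes tested. Their median log2 fold change was 0.25 against -0.03 for all genes. With the libraries rescaled to the same sum, which moved the median of all genes by 0.14, 56 still passed but 50 of these were higher and 6 lower.

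Among 14 other TNF superfamily ligands, 11 were tested, 5 rose and 2 fell, against 5 and 1 after rescaling to the same sum. Tnfsf14, which encodes the ligand LIGHT, rose from 5.85 ± 1.29 to 10.8 ± 1.91 RPKM (adjusted p-value 0.00508). Tnfsf8, the gene of CD30 ligand, rose from 0.790 ± 0.139 to 2.08 ± 0.168 RPKM (adjusted p-value 0.000416). Tnfsf18, the gene of GITR ligand, rose from 0.212 ± 0.116 to 1.07 ± 0.128 RPKM (adjusted p-value 0.000795). All 3 were of low abundance beside Tnf.

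Of 23 other receptor genes 21 were tested, 14 rose and 3 fell, against 14 and 2 after rescaling, and the median log2 fold change was 0.63. On the log2(RPKM + 1) scale the largest rise was that of Tnfrsf26, from 0.892 ± 0.094 to 5.11 ± 1.14 RPKM, with a log2 fold change of 1.68. Tnfrsf4, which encodes the T cell co-stimulatory receptor OX40, rose from 3.35 ± 0.759 to 11.5 ± 0.852 RPKM, with a log2 fold change of 1.54. Tnfrsf23, a decoy receptor for TRAIL, rose from 3.99 ± 0.653 to 11.7 ± 1.39 RPKM, with a log2 fold change of 1.36. By the plain ratio of means Tnfrsf8, which encodes the receptor CD30, rose more, from 0.200 ± 0.087 to 1.52 ± 0.408 RPKM or 7.60 times, against 5.73 times for Tnfrsf26, and this gene was named after its values were seen. The 2 mouse genes Tnfrsf23 and Tnfrsf26 and the related Tnfrsf22 are close in sequence, and the division of reads among them is uncertain.

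Of the 19 adaptors and kinases that carry the signal from receptors to NF-kB, all were tested, 8 rose and 4 fell, against 11 higher and 1 lower after rescaling to the same sum. Traf6, which encodes a ubiquitin ligase of CD40 and interleukin-1 signalling, had a log2 fold change of 0.71 with means of 5.29 and 9.28 RPKM. Traf1, an adaptor gene induced by NF-kB, had a log2 fold change of 0.50 with means of 5.63 and 8.36 RPKM. Ikbkb, which encodes the kinase IKK-beta, had a log2 fold change of 0.47 with means of 18.0 and 25.4 RPKM. Of the 12 genes of death execution 5 rose and 1 fell, against 7 and 1 after rescaling. The largest rises on the log2 scale were those of Mlkl, the pore-forming effector of necroptosis, from 4.58 ± 0.092 to 11.3 ± 0.258 RPKM, of Apaf1, the scaffold of the apoptosome, from 5.39 ± 0.684 to 11.4 ± 0.306, and of Ripk3, the kinase upstream of Mlkl, from 8.70 ± 1.17 to 17.7 ± 0.611. Their adjusted p-values were 1.7e-05, 0.000135 and 0.000167.

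Several other survival genes had larger log2 fold changes than Birc3. Of the 13 genes in this list 8 rose and 1 fell, or 10 and 0 after rescaling, with a median log2 fold change of 0.34. Cflar, which encodes the caspase-8 antagonist FLIP, rose from 8.77 ± 0.930 to 18.2 ± 0.837 RPKM, with a log2 fold change of 0.98. Bcl2a1a, one of several near-identical genes of a BCL2 relative between which reads may be divided arbitrarily, rose from 18.7 ± 2.14 to 36.5 ± 2.52 RPKM, with a log2 fold change of 0.93. Xiap, which encodes a direct caspase inhibitor, rose from 3.90 ± 0.509 to 7.06 ± 0.278 RPKM, with a log2 fold change of 0.72. All 5 genes of the shedding list changed, 3 upward and 2 downward, against 3 and 1 after rescaling. Adam17, the gene of the protease that releases TNF from the membrane, rose from 20.1 ± 0.926 to 32.0 ± 0.936 RPKM. Its partners went in opposite directions, as Rhbdf2, the gene of iRhom2, rose from 17.2 ± 0.584 to 27.4 ± 1.46 RPKM and Rhbdf1, the gene of iRhom1, fell from 35.7 ± 0.358 to 22.7 ± 0.945 RPKM. The adjusted p-values of these 3 genes were 0.000144, 0.000178 and 0.000122. Markers of several cell types moved with the same label. Beside the leukocyte and macrophage markers given above, 5 of 6 B cell markers rose, with summed levels of 126 to 141 RPKM in controls against 434 to 756, mostly from the immunoglobulin gene Ighm. Of the dendritic cell markers 2 of 6 rose, with sums of 44.6 to 53.1 against 108 to 113 RPKM, and Itgax, which macrophages also express, had the largest log2 fold change at 1.52. Of the neutrophil markers 4 of 7 rose, with sums of 373 to 507 against 436 to 710 RPKM, and of the T and NK cell markers 3 of 7 rose and 1 fell, with sums of 29.0 to 34.0 against 34.3 to 38.7 RPKM. Among fibroblast markers 3 of 6 fell, with sums of 1683 to 2456 against 1401 to 1971 RPKM, and among smooth muscle markers 4 of 5 fell and 1 rose. Of 6 endothelial markers 1 rose, 1 fell and 4 did not pass, with sums of 45.1 to 56.0 against 46.4 to 54.7 RPKM. The epithelial list had 2 of 6 higher and 2 lower. The basal keratin genes Krt5 and Krt14 were higher, with Krt5 at means of 302 and 762 RPKM. Epcam and Krt18 were lower, with Krt18 at means of 577 and 444 RPKM. The part of these cell types in the changes of the 10 genes and of the pathway lists was not tested.

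In Myc-CaP, 55 of the 86 pathway genes were tested and 5 changed, 4 of them upward, beside 6.43% of all genes tested. Tnfrsf21, which encodes death receptor 6, rose from 55.5 ± 1.16 to 98.2 ± 1.70 TPM (adjusted p-value 0.00487). Tnfrsf9, a co-stimulatory receptor gene and the receptor for the product of Tnfsf9, rose from 0.695 ± 0.046 to 2.31 ± 0.092 TPM (adjusted p-value 0.0423). Tnfrsf23 fell from 10.7 ± 0.123 to 5.36 ± 0.517 TPM (adjusted p-value 0.0186). Gadd45b, a stress-response gene induced by NF-kB, rose from 113 ± 0.939 to 146 ± 3.93 TPM (adjusted p-value 0.0256), and Adam10, which encodes a protease related to Adam17, rose from 87.1 ± 8.14 to 123 ± 6.26 TPM (adjusted p-value 0.0404). Of the 18 adaptors and kinases and the 11 death genes tested, 0 passed with limma, although 5 and 4 had an unadjusted p-value under 0.05, and 1 and 3 passed with limma voom on the recovered reads. Each of the 5 calls was lost when any 1 of the 4 libraries was left out, which leaves a group with 1 library that is assumed to vary like the other.

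**Figure D5:**
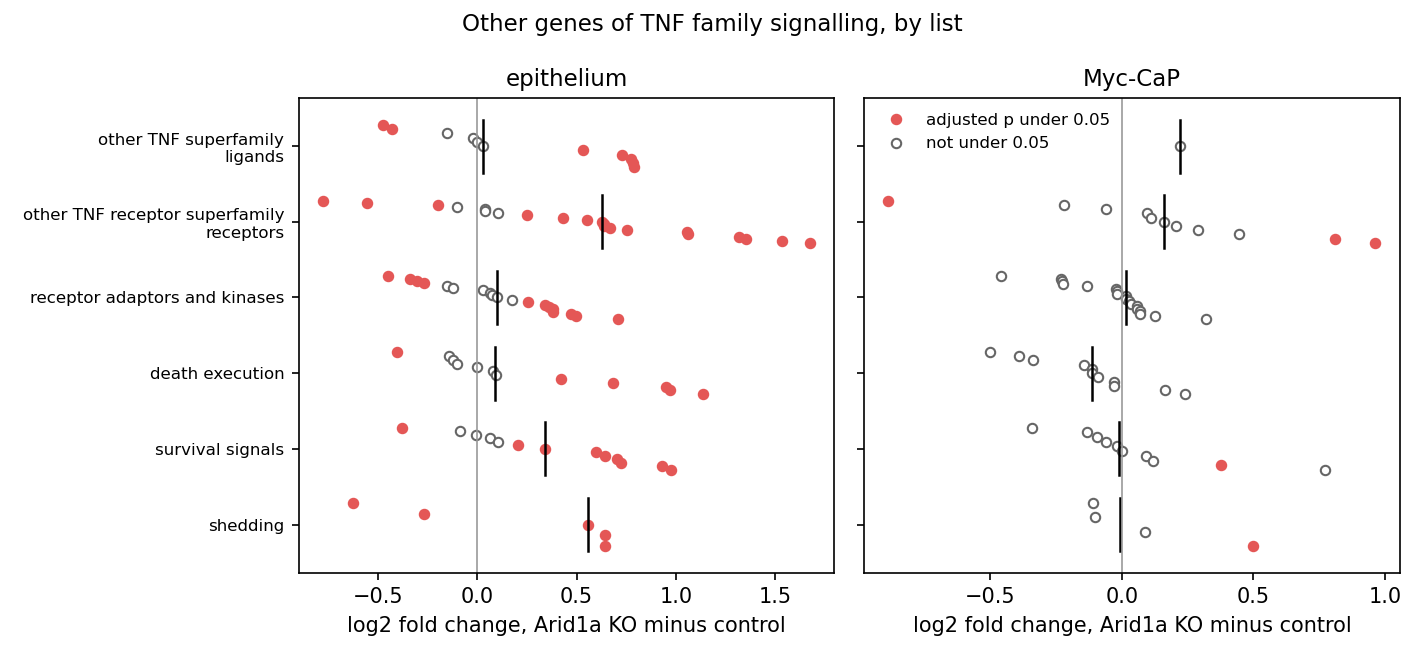
Log2 fold change between Arid1a KO and control of each tested gene in the 6 pathway lists, in the epithelium (left) and Myc-CaP (right); red points have an adjusted p-value under 0.05, open points do not, and black lines are list medians. In the epithelium 43 genes were higher and 13 lower, and in Myc-CaP 4 were higher and 1 lower.

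The genes whose pattern over the 6 epithelium libraries was most like that of Tnf, by the root mean square difference of log2(RPKM + 1) after centring each gene on its mean, were Tctex1d4, Lamb3 and Arhgap25, at 0.0367, 0.0461 and 0.0465. The nearest to Tnfrsf12a were Ppp1r15a, Rexo2 and Prr3, at 0.0274, 0.0328 and 0.0328. The nearest to Birc3 were Eif4e, Csnk1g3 and Dlg5, at 0.0116, 0.0161 and 0.0171. These are descriptions over 6 libraries among 16273 other genes, and genes that vary little come close to one another on this measure by their small range.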

How the data were processed

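RNA-seq of 10 samples in 4 groups was analysed. Paired-end reads were aligned by the authors to GRCm38 and counted per gene with HTSeq. The labels name HISAT2 and mm10, whereas the methods name TopHat2. The authors deposited RPKM for the epithelium and TPM for Myc-CaP. The gene lengths used are not given in the sources used here. Deposited values of all 10 samples were the same in the per-sample and series tables. The background deletion of the epithelium samples is not reported here by name. Groups were taken from the genotype labels, and the 10 genes and all gene lists were chosen with earlier results of these data known.

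Genes averaging 0.5 or more over a table were tested on log2(value + 1) with limma 3.58.1 (lmFit, eBayes with trend) in R 4.3.3, each table on its own, with Benjamini-Hochberg adjustment over all genes tested, two-sided, at 0.05. The logarithm understates changes of low genes. Beside the 10 genes, the text names from each pathway list and table the 3 largest changes among called genes without overlap between groups, and for Tnf, Tnfrsf12a and Birc3 the 3 nearest genes by pattern. Marker genes, Lta, Tnfsf12, Arhgdib, Bcl2, Ier3 and Map3k7 were named after their values were seen.

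Values were whole multiples of what 1 read is worth for 35170 of 35175 rows above 0, within 0.00138 of a read, which gave reads per gene and a floor of 3 counts. In simulated data on 16275 epithelium genes, with 100 genes changed by 1.5-fold and 100 by 2-fold, the test recovered 61% and 88% of them. On 13974 Myc-CaP genes it recovered 7% and 44%. Fewer genes were changed in the simulation than were called in either real table, which makes the adjustment stricter there. These shares need not hold for the real data. Ratios within a library were compared by exact permutation in Python 3.11.15. Alternatives were the pseudocount, the filter, 2 scalings, no trend, a replicate block, leaving out each library, the study's thresholds and, added after the data were seen, limma voom on recovered reads. Coordinates came from GENCODE M21 and upstream sequences from RefSeq.

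Same-letter epithelium libraries did not deviate together (correlations of deviations across genes of 0.041, 0.009 and -0.057). They were treated as unpaired, although so few libraries cannot exclude a pairing by letter. Columns of fold changes or p-values by the authors were not used.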

Additional observations from a re-analysis of the deposited data

Results flagged for a closer look

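Several genes moved in opposite directions in the 2 systems, with every library labelled Arid1a KO on one side of every control library in the epithelium and on the other side in Myc-CaP. The tables were normalized separately, and the difference between the systems was not tested. Tnfsf10 had log2 fold changes of -0.46 in the epithelium and 0.66 in Myc-CaP, of which the first passed the threshold and the second did not. Tnfrsf21 had log2 fold changes of -0.56 and 0.81, and Tnfrsf23 of 1.36 and -0.89, and these passed in both systems. The log2 fold changes were 0.64 and -0.10 for Adam17, 0.97 and -0.39 for Apaf1, 0.47 and -0.22 for Ikbkb, and 0.95 and -0.14 for Ripk3, and these passed in the epithelium only, which does not show that the systems differ. The genes given so far are from the 10 genes and the pathway genes named above by size of change. Other pathway genes met the same condition. Among these, the log2 fold changes were -0.38 and 0.77 for Bcl2, 0.34 and -0.34 for Ier3, and 0.25 and -0.23 for Map3k7. Bcl2, Ier3 and Map3k7 also passed in the epithelium only. Groups do not overlap for 66.7% of all genes tested in the epithelium and for 51.5% in Myc-CaP, in either direction. The share of all genes on opposite sides in the 2 systems was not computed.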

How the results depend on the processing

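For the 10 genes in the epithelium, 127 of 140 fold changes under the alternatives kept their direction and their side of the threshold, and those of Tnf and Tnfrsf1b did so under all 14 alternatives each. With RPKM rescaled to an equal sum per library the median of all genes shifted by 0.14, which turned Tnfsf9 to 0.074, Fas to 0.10 and Tnfrsf12a to 0.077 on the log2 scale, and it raised the share of called genes that were higher from 48.1% to 64.6%. Leaving out 1 library moved Ltb between -0.10 and 0.12 and Fas between -0.10 and 0.019, neither past the threshold. By the study's criteria the calls were 2 of the 10 genes, 30 pathway genes and 4037 genes in all, and a minimum mean of 5 left 5872 of all genes, since fewer were tested. Against the 6 leukocyte markers in place of Ptprc, the log2 differences became -0.14 for Tnf, -0.74 for Ltb, -0.55 for Cd40 and 0.23 for Tnfrsf1b.

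In Myc-CaP the counts were less stable. Without the filter 0 of the 10 genes, 1 pathway gene and 358 genes in all were called by limma, with quantile normalization 0 of the 5 genes tested, and without the trend 3 pathway genes and 451 in all, where the 1 call among the 10 genes was Tnfsf10 rather than Tnfrsf1a. Without the filter and with quantile normalization 3 of the 10 genes had an unadjusted p-value under 0.05. Tnfrsf12a turned to 0.025 with quantile normalization. With limma voom on recovered reads, 2 of the 10 genes (Tnfsf10 and Tnfrsf1a), 10 pathway genes and 1573 in all were called. Without 1 library, 0 of the 10 genes, 0 pathway genes and between 47 and 76 in all were called by limma, with 1 to 3 and 9 to 14 at an unadjusted p-value under 0.05, and Tnfrsf12a lay between -0.052 and 0.052. The cause of these changes was not tested. With the replicate number as a block, 2 of the 10 genes (Tnfrsf1a and Tnfrsf1b), 17 pathway genes and 2771 in all were called; same-numbered libraries correlated at 0.195 in their deviations, but 2 pairs do not show that the numbers pair the libraries. In the epithelium the replicate block called 4 of the 10 genes, 53 pathway genes and 8823 in all.

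With 2 libraries a group, many changes of 1.5-fold may be missed. In simulated Myc-CaP data 7% of them were recovered, with fewer genes changed than were called in the real data. A gene that did not pass in Myc-CaP is therefore not shown to be unchanged. Genes with under 10 reads in Myc-CaP allow no comparison.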
